A study of Mus musculus with 4 samples.

Results

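Lysozyme and the other non-defensin proteins that the mouse genome encodes for the granules of Paneth cells were followed here in single cells of small intestinal crypts. The members are 8 genes chosen by name: the lysozymes Lyz1 and Lyz2, the matrix metalloproteinase Mmp7, the secreted phospholipase Pla2g2a, the angiogenin Ang4, the mucosal pentraxins Mptx1 and Mptx2, and the lectin intelectin 1 (Itln1). Of these, 7 have a row among the 27998 genes counted, and Pla2g2a was not analysed here. The libraries are 2 labelled Slc7a5 fl/fl, from mice whose Slc7a5 gene, which encodes an amino acid transporter, carries loxP sites without a Cre recombinase, and 2 labelled Slc7a5 ΔIEC, from mice with the same floxed alleles and a Cre driven by the villin promoter, which is active throughout the intestinal epithelium (n = 2 libraries per genotype). All mice were 8 weeks old, and per the study's methods controls were cohoused littermates matched for age and sex. The sample records name 4 mice without saying how they were divided among libraries, and every library held cells of both sexes, as given below. The libraries of a genotype may therefore share mice. The p-values measure only the spread between these libraries, which may be technical, and not a spread between mice. Live EpCAM-positive, CD45-negative cells sorted from enriched crypts went through the version 2 kit of 10x Genomics for 3′ ends, which counts each captured transcript once as a unique molecular identifier (UMI), so levels of different genes need no division by length.

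Paneth cells sit at the base of small intestinal crypts and release granules filled with antimicrobial proteins into the crypt lumen. Lysozyme cleaves the peptidoglycan of bacterial cell walls and is the customary histological marker of these cells. In the mouse, Lyz1 is the Paneth cell gene and Lyz2 that of macrophages and other myeloid cells. MMP7 cuts the prodefensins stored in the granules into active alpha-defensins. Secreted phospholipase A2 hydrolyses bacterial membrane lipids, ANG4 is a bactericidal ribonuclease, mucosal pentraxin 2 binds and lyses bacteria, and intelectin 1 binds microbial sugars and is also made by goblet cells.

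Cells were divided by the share of their UMIs that fell on the 13 genes whose symbols start with Defa, the alpha-defensins, which take no part in the members' own levels except through the totals. A cell at 30% or more is called a Paneth cell here and a cell under 20% another cell. The libraries labelled fl/fl held 2020 and 1950 Paneth cells, 120 and 89 cells between the limits and 1493 and 1178 other cells. Those labelled ΔIEC held 2019 and 2336 Paneth cells, 1305 and 1218 between, and 6680 and 6090 others. Cells close to the limit were far more numerous in the latter, with 590 and 561 cells at 28 to 32% against 73 and 44. Other cells were split by the share of 7 goblet markers, a division chosen after the data were seen: at 5% or more they are called goblet-rich and under 4% goblet-poor.

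Depth differed between the genotypes and touches every level below. The libraries held 87922473 to 127094508 UMIs each. The median Paneth cell had 46965 and 52851.5 UMIs in the libraries labelled fl/fl and 13782 and 20159 in those labelled ΔIEC, the lowest barcode had 8909 and 9670 against 3843 and 5858, and ribosomal protein genes took 3.81 and 3.70% of Paneth UMIs against 10.2 and 10.2%. At most 132 barcodes were shared by any pair of libraries. Slc7a5 itself gave 140 and 128 UMIs in the libraries labelled fl/fl and 350 and 615 in those labelled ΔIEC, which goes against the labels, although 3′ counting does not cover the floxed first exon and so checks nothing about the deletion. Every library held both female and male cells, in parts that differed between genotypes. Xist stood at 41.8 and 45.8 CPM (UMIs in 1000000 of the class's UMIs in that library) in Paneth cells labelled fl/fl. In Paneth cells labelled ΔIEC it stood at 202 and 238. Together 4 Y-linked genes stood at 8.77 and 8.62 against 4.68 and 4.17.

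The lysozymes and the pentraxins are each a pair of near copies, so a stretch of their coding sequence is shown first. Bases that differ within a pair tell its reads apart, and the levels of the minor copy rest on such bases. The lysozyme stretch lies upstream of the last 500 transcript bases, where 3′ reads fall, and the pentraxin stretch lies within them. The lines give the last 120 coding bases (spliced, before the stop codon) of each gene on GRCm38, with capitals at the bases that differ within the pair.
Lyz1, chr10:117288586-117289174, minus strand, exons 3 and 4: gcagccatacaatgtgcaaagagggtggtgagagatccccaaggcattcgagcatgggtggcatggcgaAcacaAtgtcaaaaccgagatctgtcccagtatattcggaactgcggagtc
Lyz2, chr10:117278124-117278698, minus strand, exons 3 and 4: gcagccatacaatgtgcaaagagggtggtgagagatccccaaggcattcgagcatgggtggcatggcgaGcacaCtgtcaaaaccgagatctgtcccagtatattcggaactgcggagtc
Mptx1, chr1:174332667-174332786, plus strand, exon 2: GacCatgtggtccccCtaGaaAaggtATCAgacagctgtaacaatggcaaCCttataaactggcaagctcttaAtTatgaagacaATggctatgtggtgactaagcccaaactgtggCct
Mptx2, chr1:173274464-173274583, minus strand, exon 2: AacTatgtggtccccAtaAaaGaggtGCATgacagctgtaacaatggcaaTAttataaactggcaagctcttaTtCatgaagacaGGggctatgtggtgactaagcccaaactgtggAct
The lysozyme ends differ at 2 bases and the pentraxin ends at 16. Over the whole coding sequence, 444 bases in both lysozymes and 657 in both pentraxins, identity was 95% with 22 mismatches for Lyz1 and Lyz2 and 91.9% with 53 mismatches for Mptx1 and Mptx2. Of the 401 windows of 100 bases in the last 500 transcript bases, where 3′ reads fall, 1.25% of those of Lyz1 occurred unchanged in Lyz2, and 0% of those of Mptx1 in Mptx2. Reads without errors therefore cannot be divided between the lysozymes in a small part of the counted region. Identity over the last 500 transcript bases was 95.4% for the lysozymes and 88.1% for the pentraxins. The windows do not show how many reads went to the wrong copy, which was not tested.

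Lyz1 (chr10:117287797-117292868, 4 exons) and Lyz2 (chr10:117277331-117282321, 4 exons) lie on the minus strand of chromosome 10, 5475 bases apart. Because the 2 lysozymes fell together in Paneth cells as described further on, the 250 bases before each start are shown from RefSeq (GRCm38.p6), which has a promoter entry for 7 of the 8 members. Capitals mark bases that differ or have no partner in the alignment.
Lyz1, chr10:117292869-117293118, minus strand: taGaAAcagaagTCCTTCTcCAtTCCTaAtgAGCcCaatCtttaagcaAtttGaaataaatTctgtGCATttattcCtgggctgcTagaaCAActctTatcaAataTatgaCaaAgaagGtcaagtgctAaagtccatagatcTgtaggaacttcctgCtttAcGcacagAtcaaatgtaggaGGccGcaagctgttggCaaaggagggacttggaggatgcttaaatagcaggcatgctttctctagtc
Lyz2, chr10:117282273-117282522, minus strand: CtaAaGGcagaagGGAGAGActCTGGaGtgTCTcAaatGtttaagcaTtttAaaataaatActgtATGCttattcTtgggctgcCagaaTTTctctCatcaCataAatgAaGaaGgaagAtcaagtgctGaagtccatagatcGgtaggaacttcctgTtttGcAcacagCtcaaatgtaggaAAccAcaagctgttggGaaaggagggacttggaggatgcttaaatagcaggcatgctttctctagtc
The promoters were 79.4% identical, with 48 mismatches and 4 gap bases, and most of the differences lie in the upstream part while the last bases before the RefSeq start are shared. For Lyz2 the RefSeq start lies inside the GENCODE gene given above, which reaches 117282321. The last bases of its printed stretch therefore fall within that gene. The remaining members lie apart. Mmp7 is at chr9:7692090-7699585 (plus strand, 6 exons), Ang4 at chr14:51763878-51773590 (minus, 2 exons), Mptx1 at chr1:174330518-174332873 (plus, 2 exons), Mptx2 at chr1:173274382-173277777 (minus, 2 exons), 1052740 bases from Mptx1, and Itln1 at chr1:171518122-171535294 (minus, 8 exons). GENCODE M21 lists Pla2g2a at chr4:138831857-138835186 (plus strand) as a polymorphic pseudogene.

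In Paneth cells the members did not move as 1 group. Lyz1, Lyz2, Ang4 and Mptx2 fell in the libraries labelled ΔIEC, Mmp7 and Mptx1 rose, and Itln1 did not pass the test. UMIs were summed per library over Paneth cells and tested with edgeR's quasi-likelihood test across 12492 genes, with TMM scaling, which sets the bulk of genes to no change, and Benjamini-Hochberg adjustment at 0.05. Of the 7 members tested, 2 were called higher and 4 lower, where 20.2% of all genes tested were called higher and 19.8% lower. Their median log2 change was -1.60, beside -0.000226 for all genes. Together the members took 7.68 and 6.93% of Paneth UMIs in the libraries labelled fl/fl and 6.62 and 5.40% in those labelled ΔIEC.

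Scaling matters for the size of each change. With library size as the only scaling the median of all genes moved to 0.62 (log2), 70.4% of genes were called higher and 3.63% lower, and 3 members were called higher and 4 lower. The directions of the 6 members called with TMM were the same under both scalings, while Itln1 turned from -0.10 to 0.51. Levels in CPM below are on the library size scale, and log2 changes are from TMM unless said otherwise, each with a standard error (SE) derived from the F statistic. Overlap between genotypes is also given on the CPM scale. The share of all genes without overlap was not counted, so a lack of overlap alone sets no member apart from other genes.

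**Figure D1:**
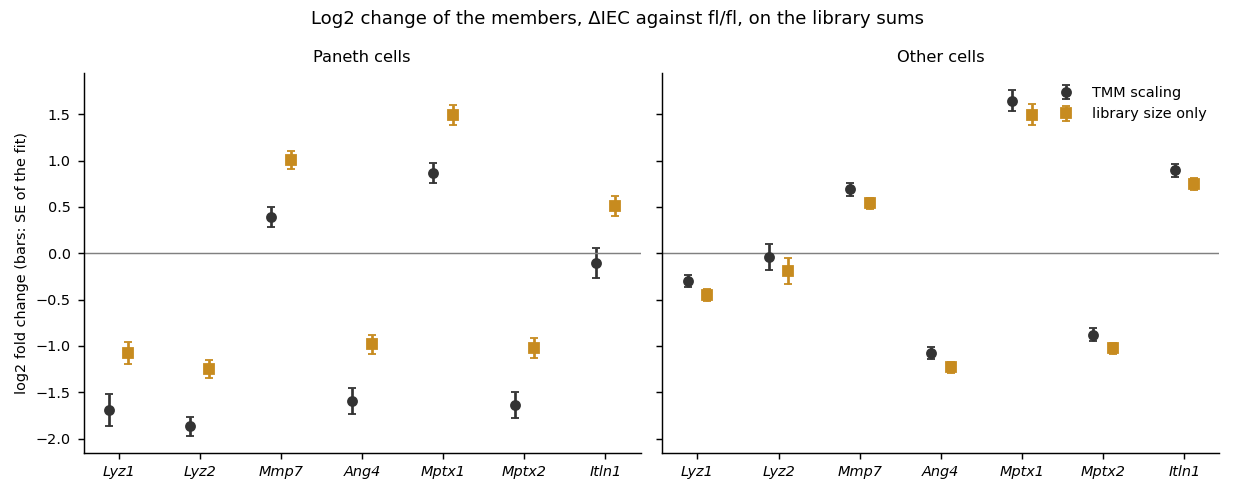
Log2 change of each member from the libraries labelled Slc7a5 fl/fl to those labelled Slc7a5 ΔIEC, ± SE from edgeR (n = 2 libraries per genotype), in Paneth cells and in other cells, with TMM scaling and with library size only. In Paneth cells with TMM, Lyz2 (-1.87), Lyz1 (-1.69), Mptx2 (-1.63) and Ang4 (-1.60) lie below 0, Mmp7 (0.40) and Mptx1 (0.87) above it, and Itln1 crosses 0 between the scalings (-0.10 and 0.51).

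Lyz1 was the most abundant member in the Paneth cells of the libraries labelled fl/fl. It stood at 36009 and 32851 CPM there and at 18450 and 14212 in those labelled ΔIEC, and the genotypes did not overlap. The means were 34430 ± 2234 and 16331 ± 2996 (SD, n = 2), and a two-sided exact permutation test over 4 libraries gave p = 0.333, the smallest it allows. In edgeR Lyz1 fell by 1.69 on the log2 scale (SE 0.17, adjusted p = 7.43e-08), and by 1.08 with library size only. The median Paneth cell carried 1601.5 and 1622.5 Lyz1 UMIs in the libraries labelled fl/fl and 218 and 252.5 in those labelled ΔIEC, a gap that includes the difference in depth.

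Lyz2 was a trace transcript beside its copy. Paneth cells held 3469 and 2973 Lyz2 UMIs in the libraries labelled fl/fl and 475 and 664 in those labelled ΔIEC, or 36.7 and 28.8 against 15.4 and 12.4 CPM. The groups did not overlap, and Lyz2 fell by 1.87 (SE 0.10, adjusted p = 2.30e-12). The ratio of Lyz2 to Lyz1 stayed in a narrow range in Paneth cells: per 1000 Lyz1 UMIs there were 1.02 and 0.876 Lyz2 UMIs in the libraries labelled fl/fl and 0.836 and 0.874 in those labelled ΔIEC. In the goblet-poor other cells it was 0.736 and 0.428 against 0.960 and 1.05, from at most 21 Lyz2 UMIs per library. Whether the Lyz2 UMIs in these sorted epithelial cells are Lyz1 reads assigned to the copy was not tested.

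The summed level of 12 myeloid markers bears on Lyz2, since Lyz2 is a myeloid gene in the mouse. It was 4.51 and 3.30 CPM in Paneth cells in the libraries labelled fl/fl and 3.67 and 3.52 in those labelled ΔIEC, which overlap. Of the 8 markers that passed the filter, 0 were called higher and 3 lower (C1qb -1.25, C1qa -1.18 and Tyrobp -1.01), with a list median of -0.89. Ptprc, which encodes CD45, the antigen sorted against, gave 10 and 12 UMIs against 3 and 5. These raw counts include the difference in depth, with Paneth sums of 94430487 and 103305352 UMIs against 30793974 and 53460665. The macrophage gene Adgre1 was at 0 in 3 of the 4 libraries. The part of these markers in the Lyz2 change was not tested.

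Ang4 and Mptx2 followed Lyz1 closely. Ang4 stood at 6465 and 6098 CPM in Paneth cells of the libraries labelled fl/fl and at 3571 and 2784 in those labelled ΔIEC, without overlap, and fell by 1.60 (SE 0.14, adjusted p = 5.52e-09). Mptx2 stood at 7274 and 6313 against 3755 and 2938, again without overlap, and fell by 1.63 (SE 0.14, adjusted p = 4.97e-09). The median Paneth cell held 276 and 297 Ang4 UMIs against 34 and 36, and 247.5 and 233 Mptx2 UMIs against 18 and 25. These gaps include the difference in depth. With library size only the falls were 0.98 and 1.02.

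Mptx1 went the other way from its copy. It is scarce, at 8.48 and 8.47 CPM in Paneth cells in the libraries labelled fl/fl and 27.9 and 20.3 in those labelled ΔIEC, and the groups did not overlap. It rose by 0.87 (SE 0.11, adjusted p = 1.50e-06), and by 1.49 with library size only. Per 1000 Mptx2 UMIs, Paneth cells held 1.17 and 1.34 Mptx1 UMIs in the libraries labelled fl/fl and 7.42 and 6.90 in those labelled ΔIEC. In other cells the ratio was 10.4 and 9.99 against 64.3 and 53.3, so it was higher in the libraries labelled ΔIEC in both classes.

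Mmp7 also rose. Its level in Paneth cells was 1522 and 1364 CPM in the libraries labelled fl/fl and 3073 and 2737 in those labelled ΔIEC, with no overlap. The log2 change was 0.40 (SE 0.11, adjusted p = 0.00561) with TMM and 1.01 with library size only. Without replicate 1 or replicate 2 of the libraries labelled fl/fl the change was 0.42 and 0.36 and the call was lost (adjusted p = 0.0622 and 0.122), so the Mmp7 call needs both of these libraries.

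Itln1 was the second member by level in the libraries labelled fl/fl and the first in those labelled ΔIEC. It stood at 25525 and 22618 CPM in Paneth cells of the former and at 37314 and 31264 in the latter, which do not overlap. Relative to the bulk of genes it did not pass the test (log2 change -0.10, SE 0.16, adjusted p = 0.657), whereas with library size only it was called higher (0.51, adjusted p = 6.95e-05). The direction therefore rests on the scaling, and without replicate 2 of the libraries labelled ΔIEC it was 0.050.

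The order of the members by level changed accordingly. In both libraries labelled fl/fl the order in Paneth cells was Lyz1, Itln1, Mptx2, Ang4, Mmp7, Lyz2 and Mptx1. In those labelled ΔIEC Itln1 stood above Lyz1, and Mptx1 above Lyz2. Mptx2, Ang4 and Mmp7, at 3755 and 2938, 3571 and 2784, and 3073 and 2737 CPM, overlapped in the latter and cannot be ordered beyond the spread between libraries. In the libraries labelled fl/fl Mptx2 and Ang4 also overlapped (7274 and 6313 against 6465 and 6098), and Mmp7 lay well under both.

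**Figure D2:**
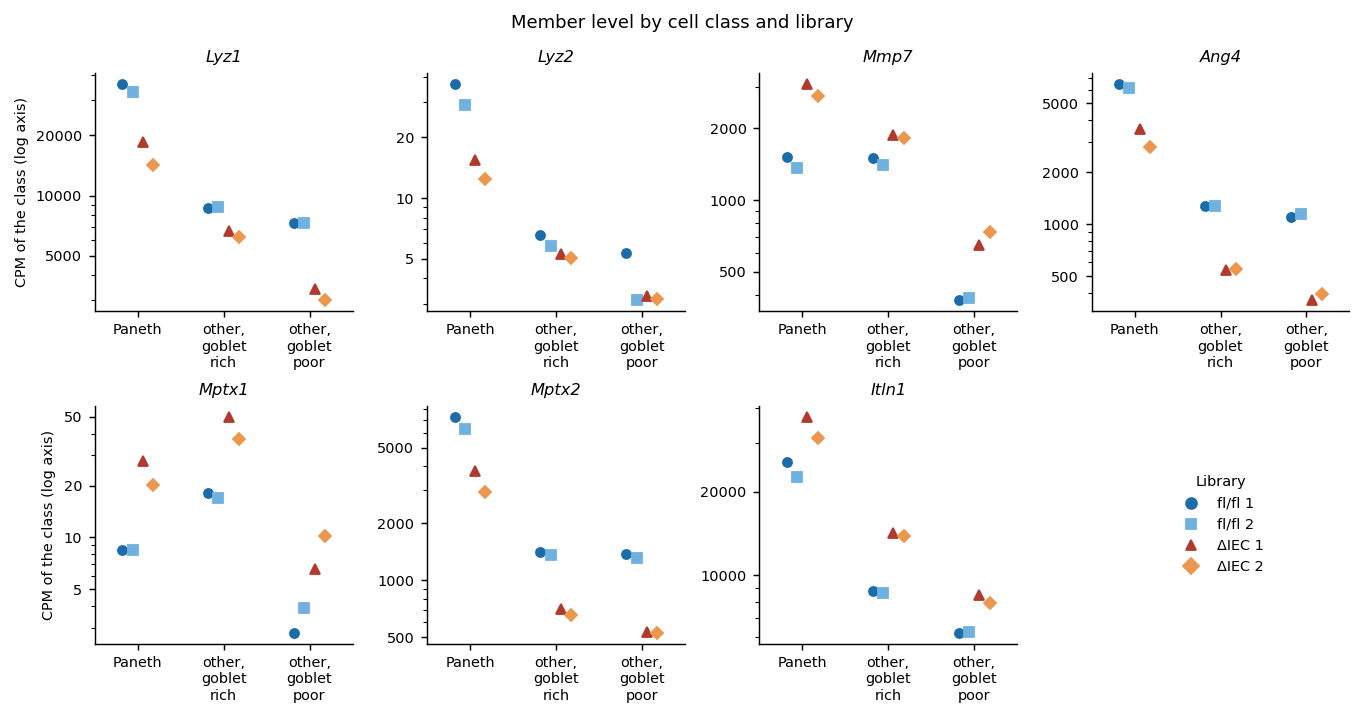
Level of each of the 7 members with a row, in CPM on a log axis, with a point for each library, in Paneth cells, goblet-rich other cells and goblet-poor other cells. Lyz1, Ang4 and Mptx2 lie lower in the libraries labelled Slc7a5 ΔIEC in all 3 classes and Mptx1 and Mmp7 higher, and Mptx1 is higher in goblet-rich cells (16.9 to 50.1) than in Paneth cells (8.47 to 27.9).

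The unequal sexes were examined for their part in these changes by a setting chosen after the data were seen. Cells were called female from 3 Xist UMIs upwards where no UMI of a Y-linked gene was present, and male where a Y-linked gene had at least 1 UMI and Xist had 0. These calls were made at each cell's own depth. Among other cells so called, 51.0 and 52.2% were male in the libraries labelled fl/fl and 7.72 and 4.70% in those labelled ΔIEC. With female Paneth cells only (385 and 455 against 980 and 1648), the log2 changes were -1.64 for Lyz1, -1.85 for Lyz2, -1.54 for Ang4, -1.57 for Mptx2, 0.74 for Mptx1, 0.38 for Mmp7 and -0.12 for Itln1. Again 2 members were called higher and 4 lower, where 1761 of the 10941 genes tested were called higher and 1755 lower. Within the libraries labelled fl/fl, Lyz1 stood at 35900 and 32972 CPM in female Paneth cells and at 35971 and 32808 in male ones. There Ang4 stood at 6685 and 6364 in female cells against 5924 and 5972 in male cells. Itln1 stood at 26041 and 23365 against 24676 and 21670. Mmp7, at 1512 and 1346 against 1586 and 1391, was lower in female cells, as was Mptx2, at 7297 and 6242 against 7356 and 6344. Of the Paneth cells labelled fl/fl, 19.1 and 23.3% were called female and 6.73 and 5.33% male, so most had no call. In the libraries labelled ΔIEC 20 and 6 Paneth cells were called male.

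To set cells of unlike depth side by side, each cell was thinned to 3500 UMIs. All Paneth cells of the 4 libraries then still held a Lyz1 and an Itln1 UMI, as did 99.9 to 100% of goblet-poor other cells, so for these genes the share carries no information and the number per cell is given. The median Paneth cell held 122 and 111 Lyz1 UMIs at this depth in the libraries labelled fl/fl and 56 and 41 in those labelled ΔIEC. The spread was wider in the latter relative to the median, with the 10th and 90th percentiles at 21 and 114 and at 18 and 92, against 79 and 170 and 72 and 152. The 90th percentile of cells labelled ΔIEC thus lay near or under the medians of those labelled fl/fl.

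Mptx2 was the most uneven of the abundant members. At equal depth the median Paneth cell held 19 and 16 Mptx2 UMIs in the libraries labelled fl/fl (10th to 90th percentile 7 to 47 and 6 to 41) and 5 and 4 in those labelled ΔIEC (1 to 35 and 1 to 27). Ang4 had medians of 21 and 20 against 9 and 6, with 90th percentiles of 33 and 32 against 24 and 19. For both genes the low end of the distribution lay further below its counterpart, as a ratio, than the high end did.

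Mmp7 and Itln1 shifted upwards as whole distributions at equal depth. The median count of Mmp7 was 5 and 5 UMIs in the libraries labelled fl/fl and 10 and 9 in those labelled ΔIEC. The medians of Itln1 were 84 and 73 against 124 and 106, and its 90th percentiles 129 and 113 against 217 and 180.5. These counts are on the library size scale. Relative to the bulk of genes (TMM) the summed Itln1 did not pass the test, as given above.

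**Figure D3:**
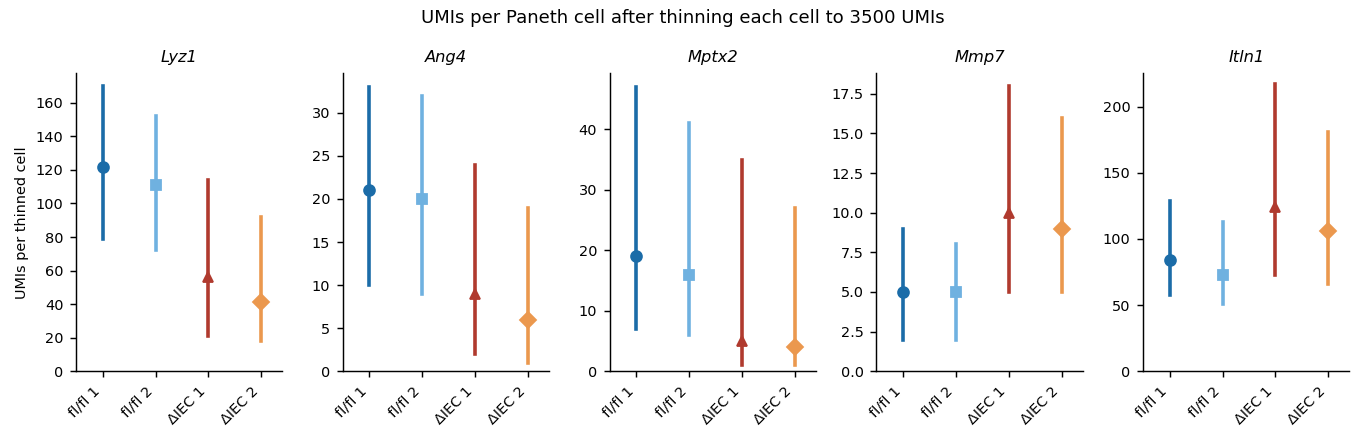
UMIs per Paneth cell after thinning each cell to 3500 UMIs, for Lyz1, Ang4, Mptx2, Mmp7 and Itln1, with the median as a marker and the 10th to 90th percentile of cells as a bar, per library. With Slc7a5 fl/fl first and Slc7a5 ΔIEC second, the medians of Lyz1 are 122 and 111 against 56 and 41, and those of Mmp7 are 5 and 5 against 10 and 9.

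Shares of Paneth cells with a UMI moved less than the counts. For Ang4 the share at 3500 UMIs was 100 and 99.9% in the libraries labelled fl/fl and 97.2 and 95.7% in those labelled ΔIEC (exact binomial 95% intervals of the latter 96.4 to 97.9 and 94.8 to 96.5, covering counting error only). For Mptx2 it was 100 and 100% against 93.9 and 95.2%, and for Mmp7 99.0 and 98.8% against 99.9 and 100%. An exact permutation test over the libraries gave p = 0.333 for each of the 3, the smallest possible.

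These shares have to be read against cells that should lack the granules of Paneth cells, since UMIs of the members were found there too. The part of free RNA in those UMIs was not tested. In the goblet-poor other cells, with median depths before thinning of 10497 and 11568 UMIs in the libraries labelled fl/fl and 5294.5 and 7575 in those labelled ΔIEC, 96.6 and 97.4% held an Ang4 UMI against 67.3 and 72.7%. Mptx2 was found in 99.1 and 98.0% against 78.9 and 82.4% of these cells, and Mmp7 in 72.6 and 70.8% against 83.6 and 92.2%. The shares for Ang4 and Mptx2 in Paneth cells labelled fl/fl thus stand only a little above those in goblet-poor cells. It is the number of UMIs per cell that sets the classes apart.

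For the scarce copies few cells held a UMI, so the share itself can differ between classes. Lyz2 was found in 11.3 and 8.92% of Paneth cells at equal depth in the libraries labelled fl/fl (intervals 9.94 to 12.7 and 7.69 to 10.3) and in 5.55 and 4.67% in those labelled ΔIEC (4.59 to 6.64 and 3.85 to 5.60). In goblet-poor cells the Lyz2 shares were 1.42 and 0.328% against 0.592 and 1.21%. Mptx1 was found in 2.57 and 2.56% of Paneth cells against 6.54 and 5.74%, and in 1.14 and 2.30% of goblet-poor cells against 2.49 and 3.77%. In the libraries labelled fl/fl the Mptx1 share of Paneth cells therefore overlaps, within its interval (1.91 to 3.37 in the second library), that of goblet-poor cells (0.928 to 4.67). It does not stand clearly apart from the share of goblet-poor cells there. In replicate 2 of the libraries labelled ΔIEC the intervals of Paneth (4.83 to 6.76) and goblet-poor cells (2.45 to 5.52) overlapped too. Goblet-rich cells had a higher Mptx1 share than Paneth cells in each library, at 5.12 and 3.93% against 8.20 and 8.20%.

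Outside the Paneth cells 3 members were called higher and 3 lower in the sums over other cells, where 17.0% of the 12377 genes tested were called higher and 16.7% lower. Ang4 fell by 1.08 (SE 0.06, adjusted p = 1.05e-10), from 1236 and 1240 CPM in the libraries labelled fl/fl to 524 and 532 in those labelled ΔIEC. Mptx2 fell by 0.88 (SE 0.07, adjusted p = 4.41e-09), from 1401 and 1342 to 697 and 649. Both drops were far wider than the gap between libraries of 1 genotype, although the Mptx2 call was lost among cells of at least 10000 UMIs (-0.30, adjusted p = 0.122).

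Lyz1 changed less in other cells than in Paneth cells. It stood at 8361 and 8393 CPM in the libraries labelled fl/fl and at 6332 and 5941 in those labelled ΔIEC, and fell by 0.30 (SE 0.07, adjusted p = 0.00236). This call was lost without either library labelled fl/fl (replicate 1 or 2; log2 change -0.31 and -0.31, adjusted p = 0.111 and 0.116), and among other cells of at least 10000 UMIs the change was 0.23 (adjusted p = 0.126). Lyz2 gave 108 and 74 UMIs against 220 and 274 in all other cells, with a log2 change of -0.04 (adjusted p = 0.862), but 0.61 (adjusted p = 0.0237) among those of at least 10000 UMIs.

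Itln1, Mmp7 and Mptx1 rose in other cells. Itln1 went from 8175 and 7979 to 13778 and 13346 CPM (log2 change 0.90, SE 0.07, adjusted p = 7.06e-09), and Mmp7 from 1234 and 1142 to 1741 and 1709 (0.69, SE 0.07, adjusted p = 1.33e-07). Mptx1 had the largest change of the members here, from 14.6 and 13.4 to 44.8 and 34.6 (1.65, SE 0.11, adjusted p = 8.24e-10). With library size only, 9.47% of genes were called higher and 30.6% lower, the median of all genes lay at -0.15, and again 3 members were called higher and 3 lower.

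The other cells differ in makeup between genotypes, so goblet-poor and goblet-rich cells were tested apart. Goblet-poor cells also differed in makeup. Their enteroendocrine markers summed to 393 and 567 CPM in the libraries labelled fl/fl and 5538 and 4215 in those labelled ΔIEC. Their tuft markers summed to 71.2 and 97.6 against 240 and 153, and their cycling markers to 1625 and 1540 against 1245 and 1282. The part of this in the members' changes was not tested. Goblet-poor cells gave log2 changes of -1.15 for Lyz1, -1.55 for Ang4, -1.30 for Mptx2, 0.43 for Itln1, 0.87 for Mmp7 and 1.36 for Mptx1, each called, and -0.37 for Lyz2 (adjusted p = 0.685). Goblet-rich cells gave -0.34, -1.13, -0.92, 0.79, 0.45 and 1.42 for the same 6 genes, each called as well, and -0.15 for Lyz2 (adjusted p = 0.472). Among all genes tested in goblet-poor cells, 227 of 10028 were called higher and 105 lower. In goblet-rich cells 1574 of 12003 were called higher and 1518 lower. Goblet-poor cells numbered 351 and 305 against 844 and 663. In the goblet-poor cells Lyz1 stood at 7259 and 7305 CPM in the libraries labelled fl/fl and 3410 and 3014 in those labelled ΔIEC, close to the relative drop seen in Paneth cells on the same scale.

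Whether a member changed by more in Paneth cells than in all other cells was tested with both sums of each library in 1 model. The difference was not tested against goblet-poor or goblet-rich cells apart. All 7 members were called lower, that is, their change was more negative in Paneth cells, where 11.3% of the 13039 genes tested were called lower and 11.0% higher. The difference was -1.83 for Lyz2 (SE 0.13, adjusted p = 5.38e-28), -1.40 for Lyz1 (SE 0.07, adjusted p = 2.56e-46), -1.001 for Itln1, -0.76 for both Mptx1 and Mptx2, -0.53 for Ang4 and -0.29 for Mmp7. With library size only the median of all genes moved to 0.75, 73.2% of genes were called higher and 0.514% lower, and Lyz1 (-0.64), Lyz2 (-1.08) and Itln1 (-0.24) were still called lower. Under that scaling Ang4 (0.24) and Mmp7 (0.47) were called higher, so their sign depends on the scaling, and the pentraxins lost their call at values near 0.

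The members also differed in how far they mark Paneth cells. In CPM, Paneth cells exceeded other cells 5.23 and 4.92 times for Ang4 in the libraries labelled fl/fl and 6.81 and 5.24 times in those labelled ΔIEC, 5.19 and 4.70 against 5.38 and 4.53 times for Mptx2, and 4.31 and 3.91 against 2.91 and 2.39 times for Lyz1. For Itln1 the ratios were 3.12 and 2.83 against 2.71 and 2.34, and for Mmp7 1.23 and 1.19 against 1.77 and 1.60. For comparison the summed Defa genes, which the classes were cut on, had 7.23 and 6.91 against 6.09 and 5.60. Ang4 and Mptx2 were thus the most Paneth-weighted of the abundant members in all 4 libraries. Against goblet-poor cells alone the ratios of Lyz1 were 4.96 and 4.50 against 5.41 and 4.72, and those of Itln1 4.12 and 3.63 against 4.40 and 3.96. The lower ratios of Lyz1 and Itln1 in the libraries labelled ΔIEC were therefore not seen against goblet-poor cells.

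Mptx1 was the 1 member with a lower level in Paneth cells than in other cells, at 0.58 and 0.632 times in the libraries labelled fl/fl and 0.622 and 0.586 times in those labelled ΔIEC. Within the other cells its level was higher in goblet-rich cells, at 18.2 and 16.9 CPM against 50.1 and 37.4, than in goblet-poor cells, at 2.80 and 3.91 against 6.54 and 10.2. Cells at 20 to 30% Defa had 33.7 and 32.02 CPM in the libraries labelled fl/fl, above their goblet-rich cells, and 40.9 and 39.2 in those labelled ΔIEC. Mmp7 had the same split to a lesser degree, with 1496 and 1408 against 1876 and 1815 in goblet-rich cells and 380 and 389 against 649 and 735 in goblet-poor cells. Against goblet-poor cells Mmp7 was 4.00 and 3.50 times as high in Paneth cells labelled fl/fl and 4.74 and 3.72 times in those labelled ΔIEC.

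The ratio of a member to the defensins in the same cells is given as a description between genotypes, since the classes were cut on the Defa share and the ratio is therefore lower in Paneth cells by construction. Per 1000 Defa UMIs, Paneth cells held 87.4 and 74.7 Lyz1 UMIs in the libraries labelled fl/fl and 50.1 and 38.2 in those labelled ΔIEC. Goblet-poor cells held 171 and 158 against 115 and 87.8. Itln1 had 62.0 and 51.5 against 101 and 84.1 in Paneth cells and 146 and 134 against 285 and 230 in goblet-poor cells. In both classes Lyz1 was lower relative to the defensins in the libraries labelled ΔIEC and Itln1 higher.

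Ang4 and Mptx2 were lower relative to the defensins in the libraries labelled ΔIEC as well. Per 1000 Defa UMIs there were 15.7 and 13.9 Ang4 UMIs in Paneth cells labelled fl/fl and 25.9 and 24.8 in goblet-poor cells, and 9.70 and 7.49 against 12.2 and 11.4 in the libraries labelled ΔIEC. For Mptx2 the values were 17.7 and 14.4 against 32.4 and 28.2, and 10.2 and 7.90 against 18.1 and 15.4. How much of the members' level in goblet-poor cells is free RNA was not tested.

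Levels were then followed along the defensin share, in CPM outside Defa (the same over the UMIs outside the Defa genes), which takes the 13 Defa symbols out of the denominator. Defensin genes under other symbols remain in it: all 22 defensin genes took 56.5 and 59.0% of Paneth UMIs in the libraries labelled fl/fl and 50.4 and 51.5% in those labelled ΔIEC, against 41.2 and 44.0% and 36.8 and 37.2% for the 13. In the libraries labelled fl/fl Lyz1 climbed from 7475 and 7587 in cells under 5% Defa to 36230 and 29113 at 20 to 30% and 62419 and 59752 at 40 to 50%. In those labelled ΔIEC it went from 3533 and 3636 to 24004 and 18994, and then stayed flat at 30013 and 23038 (30 to 40%) and 26260 and 21156 (40 to 50%). Lyz1 was thus lower at equal defensin share above 20% in the libraries labelled ΔIEC, and the gap was widest in the cells richest in defensins.

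Ang4 rose with the defensin share in all 4 libraries, from 3620 and 2643 at 20 to 30% to 11606 and 11270 at 40 to 50% in those labelled fl/fl, and from 2325 and 1738 to 7401 and 6386 in those labelled ΔIEC. At 20 to 30% Mptx2 stood at 4109 and 3059 against 3892 and 2997, which overlap. At 30 to 40% it stood at 11948 and 10774 in the libraries labelled fl/fl against 5916 and 4716. Mptx2 thus separated the genotypes only from 30% upwards among cells over 20% Defa. In each bin under 20% it was lower in both libraries labelled ΔIEC as well. At 10 to 20% it stood at 2539 and 2154 in the libraries labelled fl/fl against 1767 and 1329.

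Among cells over 20% Defa, Mmp7 also separated the genotypes only from 30% upwards, in the other direction. In each bin under 20% it was higher in both libraries labelled ΔIEC too. At 10 to 20% Mmp7 stood at 3270 and 3053 in the libraries labelled fl/fl against 3744 and 3321. At 20 to 30% Defa it stood at 4779 and 4662 in the libraries labelled fl/fl and 4926 and 4338 in those labelled ΔIEC, which overlap. At 40 to 50% it was 2501 and 2360 against 4529 and 3969. In the libraries labelled fl/fl Mmp7 was therefore lower in the cells richest in defensins than in those between the limits, while in those labelled ΔIEC it stayed near its level there.

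Mptx1 and Itln1 had their own courses. Mptx1 went from 45.4 and 43.2 at 20 to 30% to 12.4 and 13.3 at 40 to 50% in the libraries labelled fl/fl, and from 54.9 and 52.6 to 29.8 and 30.7 in those labelled ΔIEC. Itln1 was higher in the libraries labelled ΔIEC at 20 to 30% (53524 and 44116 against 33930 and 28227) and came closer at 40 to 50% (52951 and 43900 against 41718 and 40388). Cells at 20 to 30% held more goblet marker UMIs than those at 40 to 50%, with median shares of 12.9 and 14.5% against 3.73 and 3.36% in the libraries labelled fl/fl and 7.77 and 8.22% against 3.75 and 4.20% in those labelled ΔIEC. The part of cell mixtures in these courses was not tested.

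**Figure D4:**
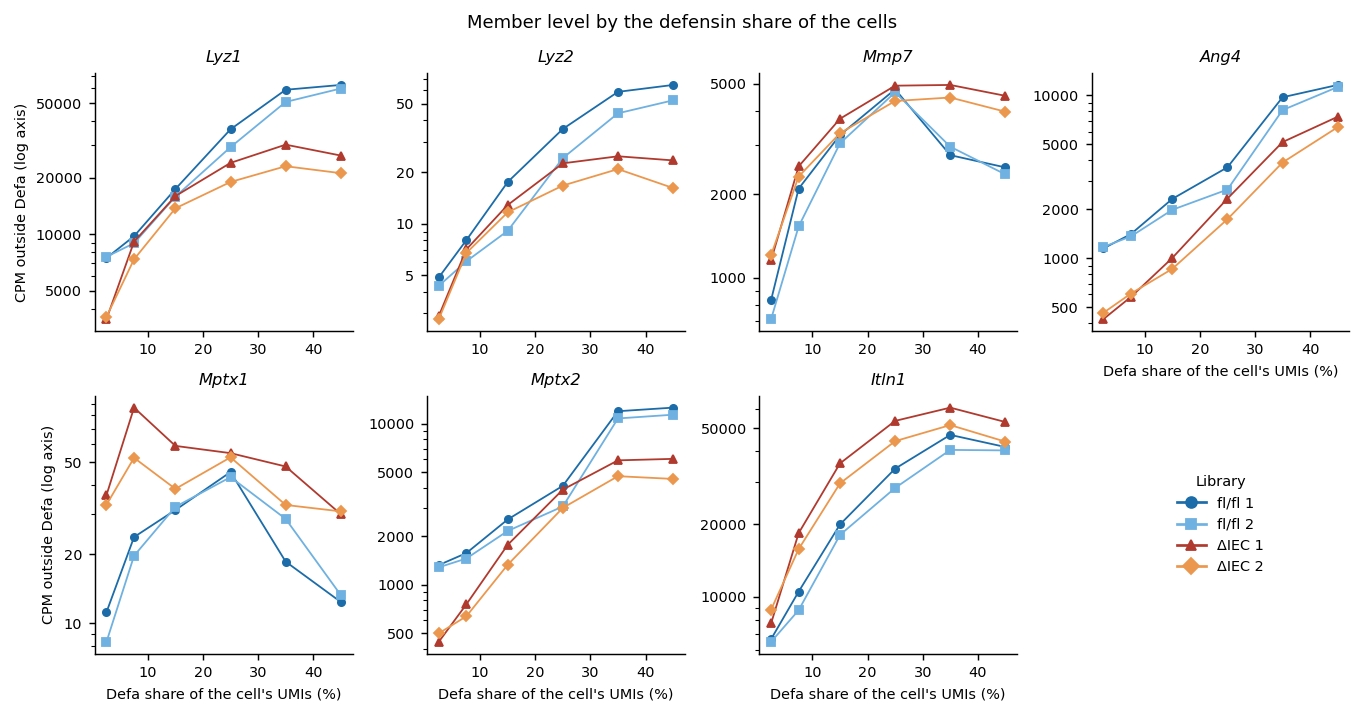
Member level in CPM outside Defa (log axis) against the Defa share of the cell (middle of each bin, in percent), with a line for each of the 4 libraries. Lyz1 in the libraries labelled Slc7a5 ΔIEC stays flat above 30% (30013 and 23038, then 26260 and 21156), and Mmp7 overlaps between genotypes at 20 to 30% and separates at 40 to 50% (2501 and 2360 against 4529 and 3969).

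Within Paneth cells of a single library the relation to the defensin share was weak for most members. Spearman's rank correlation over 1950 to 2336 cells thinned to 3500 UMIs, between the Defa share and the member's share of the UMIs outside Defa, was 0.24 and 0.28 for Ang4 in the libraries labelled fl/fl and 0.32 and 0.35 in those labelled ΔIEC. For Lyz1 it was 0.16 and 0.25 against -0.00 and 0.01. When cells from 20% Defa upwards were taken in, Lyz1 had 0.25 and 0.32 against 0.18 and 0.15, so its near absence in the libraries labelled ΔIEC depends on the limit. These are descriptions over cells that share library, droplets and depth, and both quantities also rose with a cell's total UMIs (rank correlation of the Defa share with the total 0.23 and 0.24 against 0.30 and 0.38, and of Ang4 0.40 and 0.41 against 0.36 and 0.36). The rank correlation was at least 0.1 in size in all 4 libraries for 2 members, Ang4 and Itln1.

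Itln1 had a negative relation, with -0.23 and -0.13 in the libraries labelled fl/fl and -0.11 and -0.13 in those labelled ΔIEC. It turned to 0.13 and 0.13 in the latter when cells from 20% Defa upwards were taken in. Mptx2 had 0.09 and 0.10 against 0.11 and 0.09, and Mmp7 -0.11 and -0.07 against -0.08 and -0.09. For the sparse Lyz2 and Mptx1 the rank correlation lay between -0.04 and 0.05. It cannot show whether a relation exists, since 88.7 to 97.4% of thinned Paneth cells held no UMI of the gene. Summed over cells, Mptx1 went from 18.6 and 28.4 CPM outside Defa at 30 to 40% to 12.4 and 13.3 at 40 to 50% in the libraries labelled fl/fl. In those labelled ΔIEC it went from 48.0 and 32.7 to 29.8 and 30.7.

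Between members, cells rich in 1 were only loosely rich in another. Lyz1 and Ang4 had a rank correlation of 0.31 and 0.36 over Paneth cells labelled fl/fl, and 0.16 and 0.16 over those labelled ΔIEC. Ang4 and Mptx2 had 0.28 and 0.29 against 0.13 and 0.09, and Lyz1 and Mptx2 0.16 and 0.21 against 0.01 and -0.03. Mmp7 and Itln1 had 0.20 and 0.18 against 0.32 and 0.28. The pairs among Lyz1, Ang4 and Mptx2 were thus lower in the libraries labelled ΔIEC, where counts per cell were also lower, and the pair of Mmp7 and Itln1 higher, where counts were higher. Pairs of a member with lower counts and Itln1 went both ways. Lyz1 and Itln1 had 0.12 and 0.18 against 0.20 and 0.21. Ang4 and Itln1 had 0.17 and 0.23 against 0.04 and 0.00, and Mptx2 and Itln1 0.23 and 0.25 against 0.07 and 0.04. The part of the counts in these correlations was not tested.

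At 3500 UMIs per cell, 232 and 257 Paneth cells of the libraries labelled ΔIEC held a trypsinogen UMI and 0 and 0 of those labelled fl/fl, where all Paneth cells together held 3 and 2 UMIs of the trypsinogen gene Try5 before thinning. In these cells Lyz1 stood at 27042 and 21051 CPM outside Defa, against 29471 and 22810 in Paneth cells without such transcripts, and Itln1 at 62425 and 53189 against 58650 and 49352. For Lyz1 and Itln1 each difference had the same direction in both libraries and was smaller than the gap between the 2 libraries. Ang4 stood at 5002 and 3914 in cells with a trypsinogen UMI against 5733 and 4493 without. Mptx1 stood at 29.5 and 28.3 against 45.9 and 32.7, from 63 and 102 UMIs in the cells with one. By this level Itln1 was the only member higher in the cells with a trypsinogen UMI. Mptx2 was nearly equal, at 5902 and 4674 against 5949 and 4676. Its medians at 3500 UMIs were 6 and 5 in the cells with one against 5 and 4. The differences were not tested.

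The genes whose level ran most like each member's over 24 points (6 bins of the Defa share in each of 4 libraries, log2 level outside Defa, 3331 genes) were named by Pearson's r, as a description. For Lyz1 they were Clps, encoding colipase (r = 0.98), AY761184 (0.98) and Gm7849 (0.97), and for Lyz2 Ggh, encoding gamma-glutamyl hydrolase (0.97), Clps (0.97) and AY761184 (0.96). For Mptx2 they were Gm14851 (0.99), Clps (0.99) and Gm7849 (0.98), and for Ang4 Gm14851 (0.98), Gm21002 (0.97) and Gm10104 (0.97). RefSeq now names Gm7849 Defa42 and Gm14851 Defa38, so these are alpha-defensin genes under older symbols.

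The nearest genes of the remaining members were of other kinds. Mmp7 ran most like Wnt3, a Wnt ligand made by Paneth cells (0.98), Cd24a, a surface glycoprotein of Paneth cells (0.96), and Fam46c (0.96). Itln1 ran with Tmed6, a secretory pathway protein (0.98), Bambi, a decoy receptor for TGF-beta signals (0.98), and Gadd45g (0.96). Mptx1 had the loosest companions, Ramp1 (0.89), Smim3 (0.89) and Retnlb, the goblet cell product RELM-beta (0.87). Among the genes named, alpha-defensins or colipase stood beside Lyz1, Lyz2, Ang4 and Mptx2, and neither stood beside Mmp7, Itln1 and Mptx1. The r of the latter members with those genes is not given here. The points are bins of the Defa share, and defensins under other symbols were kept among the genes compared. A high r with them is thus in part built in, and the members cannot be grouped by it.

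Among relatives of the members in their protein families, 20 of 37 could be tested in Paneth cells, of which 5 were called higher and 5 lower, with a median of -0.04. The largest rises were those of the neuronal pentraxin Nptx2 (3.45), the pancreatic-type ribonuclease Rnase1 (0.43) and the phospholipase Pla2g12a (0.39), and the largest falls those of the pancreatic-type phospholipase Pla2g1b (-2.09), Nptx1 (-1.77) and the angiogenin Ang6 (-1.71). In other cells 8 of 16 relatives were called higher and 3 lower. These counts are to be read against the 20.2% of all genes called higher and 19.8% called lower in Paneth cells, and 17.0% and 16.7% in other cells, and the same holds for the lists that follow.

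Other secreted products of Paneth cells or their neighbours were also split, with 11 of 29 tested higher and 9 lower in Paneth cells (median -0.13) and 13 of 29 higher and 6 lower in other cells. Try5, a trypsinogen (10.35, a fitted value that rests on 3 and 2 UMIs in the libraries labelled fl/fl against 1792 and 2662), Reg4, a lectin of secretory cells (1.98), and Retnlb (1.71) rose most. Reg3a, an antibacterial lectin (-1.56), Saa1, an acute-phase protein (-1.55), and Clps (-1.37) fell most. Of 32 genes of regulated secretion tested, 10 were higher and 6 lower (median 0.03), and in other cells 12 of 31 higher and 0 lower. In Paneth cells the rises were led by Creb3l1, a stress-regulated transcription factor (0.90), and Ern2 (0.84) and Ern1 (0.74), which encode sensors of unfolded proteins. The largest falls were those of the autophagy gene Atg7 (-1.25), Bhlha15, a transcription factor of secretory cells (-0.39), and the granule fusion protein gene Vamp8 (-0.35).

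Markers of other cell types in the Paneth cell sums moved as well. The 7 goblet markers summed to 41575 and 37244 CPM in the libraries labelled fl/fl and 47614 and 52717 in those labelled ΔIEC, with 1 called higher (Muc2, 0.40) and 4 lower (median -0.45). Enterocyte markers summed to 1270 and 1197 against 671 and 770, with 0 of 10 higher and 10 lower (median -1.40, led by Sis at -1.69), and cycling markers had 0 of 8 higher and 6 lower (median -0.69). Stem markers had 1 of 7 higher (Lgr5, 0.39) and 4 lower (median -0.26, led by Olfm4 at -1.81). Enteroendocrine markers had 2 of 9 higher and 5 lower (median -0.18), tuft markers 0 of 7 and 6 (median -0.64), and pancreatic acinar markers 1 of 2 tested and 0 (Cela1, 0.47; median 0.35), with Cpa1, Cpb1, Amy2a5, Cel and Cela2a at 0 in all 4 libraries. The part of these cell types in the members' changes was not tested.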

How the data were processed

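The authors made the deposited counts with Cell Ranger (2.1.1 in the submitters' processing notes, another version in the methods) on mm10: raw UMI counts of 27998 genes in 26498 cell barcodes of 4 libraries, not normalized. They were used as deposited. Cells were classed by the share of 13 Defa symbols (30% or more Paneth, under 20% other). Counts were summed per library and class and tested with edgeR 4.0.16 (glmQLFit, glmQLFTest, TMM, filterByExpr, Benjamini-Hochberg at 0.05, two-sided). Class by genotype was tested with library as a block. Shares were compared after thinning to 3500 UMIs, with Clopper-Pearson intervals and exact permutation tests. DESeq2 1.42.0 and the other settings named in the closing section were alternatives. Doublets were kept, and left out as an alternative (1734 cells). The tests were tried on simulated counts. Gene positions are from GENCODE M21, promoters from RefSeq. The genes named are all members, the 3 largest rises and falls of each list and the 3 genes most like each member. Members, lists and rules were chosen with earlier results of these data known.

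The labels do not say whether replicate numbers pair the samples, and the main tests used no pairing. The correlation of deviations between replicates of the same number was 0.0981 in Paneth and 0.174 in other cells. It cannot decide the question, since 2 libraries per genotype give a single difference per gene.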

Additional observations from a re-analysis of the deposited data

Results flagged for a closer look

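The change from the libraries labelled Slc7a5 fl/fl to those labelled Slc7a5 ΔIEC was compared between Paneth cells and all other cells summed. It differed by an interaction term in edgeR for each of the 7 members. The other cells differ in makeup between genotypes, and the term was not tested against goblet-poor or goblet-rich cells apart. The difference, Paneth minus other, was -1.40 (log2) for Lyz1, -1.83 for Lyz2, -0.29 for Mmp7, -0.53 for Ang4, -0.76 for Mptx1, -0.76 for Mptx2 and -1.001 for Itln1. All 7 were called with TMM scaling. With library size only, those of Lyz1, Lyz2 and Itln1 were called in the same direction, and those of the other 4 were not. Which other cells are used matters. The log2 ratio of mean CPM of Lyz1 was -1.08 in Paneth cells, -1.18 in goblet-poor cells and -0.44 in goblet-rich cells. In Paneth and goblet-poor cells it was -0.98 and -1.58 for Ang4 and -1.02 and -1.33 for Mptx2. For Mmp7 it was 1.01 and 0.85, for Mptx1 1.51 and 1.32 and for Itln1 0.51 and 0.40. Lyz2, at -1.23 and -0.40, was the only member more negative in Paneth cells than in goblet-poor cells on this scale. Its goblet-poor value rests on few UMIs.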

How the results depend on the processing

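The count of members called in Paneth cells (6 of 7) and in other cells (6 of 7) was 5 to 6 in either class when 1 library was left out, and 7 of 7 differences between classes were called whichever library was left out. With the replicate number as a block (replicate block), 5113 genes and 6 members were called in Paneth cells and 4723 genes and 6 members in other cells, and no member changed its call. The count of all genes called moved more. In Paneth cells it was 4993, and 9249 with library size only, 3123 with DESeq2, 2012 with cells thinned to 3500 UMIs, 2662 with Paneth cells at 40% or more and 3950 to 4559 with a library left out. In other cells it was 4163, and 2492 with DESeq2, 2361 with thinned cells, 2612 with female cells only, 332 with goblet-poor cells (fewer cells) and 2839 to 4258 with a library left out. For the difference between classes it was 2908, and 9617 with library size only and 1769 to 2306 with a library left out, the lowest without replicate 1 of the libraries labelled fl/fl. Directions that turned were those of Itln1 in Paneth cells (-0.10, but 0.51 with library size only, and -0.26 to 0.050 with a library left out, the 0.050 without replicate 2 of those labelled ΔIEC), of Lyz1 (0.23) and Lyz2 (0.61) in other cells of at least 10000 UMIs, of Lyz2 in other cells with a library left out (-0.19 to 0.13), and of Ang4 (0.24) and Mmp7 (0.47) in the difference between classes with library size only. In other cells of at least 10000 UMIs Mptx2 also lost its call (-0.30, adjusted p = 0.122), leaving 4 members higher and 1 lower. In that setting 1594 of the 11351 genes tested were called higher and 1658 lower. The causes were not tested. Over all settings, 115 member changes in Paneth cells kept direction and call, 2 lost the call and 2 turned, and in other cells 120, 3 and 3. With 2 libraries per genotype an exact permutation test cannot go below 0.333.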
